A study of Homo sapiens with 12 samples.

Results

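The 100 RNAs described here were the most depleted from ADAR3 immunoprecipitates (IP) of U373-MG glioblastoma cells against both controls of the experiment, IP with pre-immune serum (serum IP) and input RNA. They were chosen from 24910 genes with values in both deposited tables. Levels are in CPM, the deposited value of a gene per 1000000 of its library's total. Of these genes, 7210 reached a group mean of at least 20 CPM in both serum IP and input, and 3941 of the 7210 had a serum mean that was not above the input mean. For 283 of those, each of the 4 ADAR3 IP libraries lay below each of the 4 serum and each of the 4 input libraries. These 283 were ranked by a score, the larger of the log2 ratios of ADAR3 IP over serum IP and over input with 0.1 CPM added, and the 100 lowest scores were taken. Since the serum mean could not exceed the input mean, the score of all 100 was the log2 ratio over serum IP. The levels and ratios of the 3 groups chose these RNAs, so they are given as a description and not as a test.

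RNA IP recovers RNA attached to a protein with an antibody against that protein, here after ultraviolet light had crosslinked RNA to protein in the cells. ADAR3 is encoded by ADARB2 and belongs to the adenosine deaminases that act on double-stranded RNA. It keeps double-stranded RNA-binding domains and an arginine-rich domain that binds single-stranded RNA, and no editing activity of its own is known. Pre-immune serum recovers RNA that sticks to antibodies, beads or abundant protein without the target. Each library is a set of proportions, so a lower level does not say that less of an RNA was recovered.

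The 12 libraries were 4 of IP with ADAR3 antibody, 4 of IP with pre-immune serum and 4 of input RNA, all from U373-MG cells with endogenous ADAR3 and no other treatment named. Stocks sold under this line's name have been found to be another glioblastoma line, which was not checked here. Libraries held 23999234 to 30156884 assigned reads in ADAR3 IP, 1875461 to 4946149 in serum IP and 4873428 to 12772412 in input. Replicates of 1 group differed from each other by more than sampling noise, and nothing in the labels says that they came from separate cultures, so the spread may be technical. The files give Ensembl IDs without symbols and the reference used held none of these IDs, so the RNAs have no gene names here. Glioblastoma markers could not be checked for the same reason. The RNA ranked 1 and the RNA ranked 2 are given by their IDs and others by their rank.

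The RNA ranked 1, ENSG00000276168, was also the most abundant of all 7210 genes in input. It had 370.3, 167, 201 and 422 CPM in ADAR3 IP, 2362, 2825, 2549 and 1779 CPM in serum IP, and 12982, 17142, 15049.6 and 18417 CPM in input. The 3 groups were far apart, and the lowest control library was 4.21 times the highest ADAR3 IP library. Means were 290.1 ± 125.2 CPM in ADAR3 IP, 2379 ± 443 CPM in serum IP and 15898 ± 2389 CPM in input (SD, n = 4 each). The ADAR3 IP mean was thus 8.20-fold below serum IP and 54.8-fold below input.

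ENSG00000269900, ranked 2, had 81.7, 47.8, 62.3 and 99.4 CPM in ADAR3 IP, 291, 403, 438 and 477 CPM in serum IP, and 6600.4, 7939.7, 7824 and 8157 CPM in input. Again no library of a group overlapped another group. The mean of 72.8 ± 22.5 CPM in ADAR3 IP was 5.52-fold below the 402 ± 80.2 CPM of serum IP and 104.7-fold below the 7630.3 ± 700.3 CPM of input (SD, n = 4 each). The fold below input was larger for this RNA than for any of the other 99. Most of that difference was already present in serum IP, which stood 18.97-fold below input.

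Another RNA of this kind, ranked 16 by score, had 216, 135, 144 and 239 CPM in ADAR3 IP, 515, 679.8, 579 and 472 CPM in serum IP, and 5603, 6221, 6440.0 and 7052 CPM in input. ADAR3 IP was 3.06-fold below serum IP and 34.4-fold below input, and serum IP was 11.3-fold below input. These were the 3 members above 5000 CPM in input, a limit chosen after their values were seen. In all 3, ADAR3 IP replicate 4 was the highest and replicate 2 the lowest of the ADAR3 IP libraries, and input replicate 4 was the highest and replicate 1 the lowest of the input libraries. The serum libraries ran in the same order for the RNAs ranked 1 and 16, with replicate 4 the lowest and replicate 2 the highest, and in another order for the RNA ranked 2, with replicate 1 the lowest and replicate 4 the highest. In the plot of these RNAs by library, the ADAR3 IP, serum and input points form separate levels for each RNA.

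**Figure D1:**
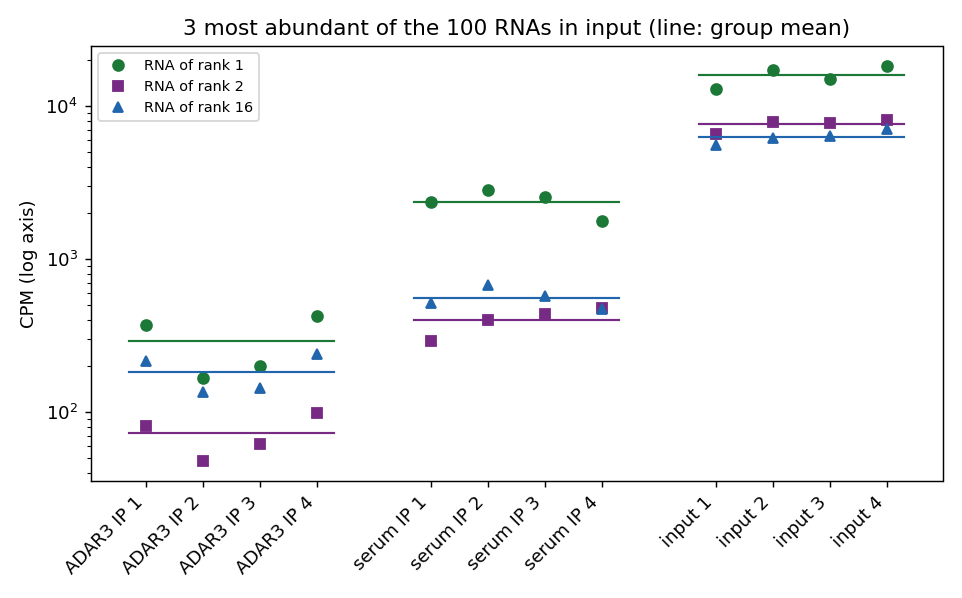
CPM (log axis) of the 3 members with the highest input level in each of the 12 libraries, with points for libraries and lines for group means. For the RNA ranked 1, the ADAR3 IP points lie between 167 and 422 CPM, the serum points between 1779 and 2825 CPM and the input points between 12982 and 18417 CPM.

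These 3 RNAs carried most of the reads of the 100 in input. All 100 together took 0.451% ± 0.0533 of reads in ADAR3 IP, 1.34% ± 0.102 in serum IP and 4.82% ± 0.481 in input (SD, n = 4 each). The 3 RNAs made up 12.1% of that share in ADAR3 IP, 24.9% in serum IP and 61.9% in input. The remaining 97 took 0.396% ± 0.0357 of reads in ADAR3 IP, 1.01% ± 0.0581 in serum IP and 1.84% ± 0.130 in input. For them the libraries ranged from 0.353% to 0.441% in ADAR3 IP, from 0.939% to 1.07% in serum IP and from 1.68% to 1.96% in input. The rule put each ADAR3 IP library below both controls for every member, so these shares had to be lowest there. It also kept the serum mean from exceeding the input mean, but did not require that serum and input libraries not overlap.

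Below these 3, the members were of moderate abundance, with at most 1384 CPM in input. Over all 100, with these 3 included, input levels ran from 29.6 to 15898 CPM. Their median was 130.3 CPM, with quartiles of 61.5 and 237 CPM, against a median of 65.8 CPM over the 7210 genes. In serum IP the median was 73.5 CPM (61.0 CPM over the 7210), and in ADAR3 IP 29.3 CPM (61.3 CPM over the 7210). Only 10 members had 500 CPM or more in input, and 12 had under 50 CPM. Reads per member were fewest in serum replicate 4, the shallowest library, where they ranged from 25 to 3336 with a median of 127. In ADAR3 IP replicate 4, the shallowest of that group, they ranged from 51 to 10134 with a median of 777.5.

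The RNA ranked 3 shows the pattern at such a level. It had 11.0, 14.5, 15.4 and 14.7 CPM in ADAR3 IP, 67.9, 71.9, 77.4 and 77.3 CPM in serum IP, and 144, 158, 156 and 158 CPM in input. Its lowest control library was 4.41 times its highest ADAR3 IP library, the widest such gap among the 100. The RNA ranked 4 had the least in ADAR3 IP, with 7.90, 1.23, 5.21 and 2.13 CPM there, against 19.6, 28.3, 20.04 and 13.3 CPM in serum IP and 29.4, 32.99, 24.8 and 31.2 CPM in input. Its serum and input libraries overlapped, and its ADAR3 IP libraries spread more widely on the log2 scale (SD 1.18, n = 4) than those of any other of the 100.

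Over the 100, the median log2 ratio of ADAR3 IP over serum IP was -1.37, with quartiles of -1.49 and -1.19, and that of ADAR3 IP over input was -2.09, with quartiles of -2.52 and -1.74. Over the 7210 genes these medians were 0.00092 and -0.062. All 100 were at least 2-fold lower in ADAR3 IP than in serum IP, which follows from the cut of the list at a score of -1.08. Only 6 were at least 4-fold lower. Against input, 53 were at least 4-fold lower and 6 at least 8-fold lower. The gap between the lowest control library and the highest ADAR3 IP library was narrow for many: its median was 1.39-fold, it ran from 1.01-fold to 4.41-fold, and it reached 2-fold for 9 members.

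Each ADAR3 IP library showed the list at a low level. Relative to the input mean, the median log2 level of the 100 was -2.14, -2.32, -2.03 and -1.95 in ADAR3 IP replicates 1 to 4, and -0.95, -0.74, -0.86 and -0.89 in serum replicates 1 to 4. In the input libraries it was -0.13, 0.088, -0.048 and 0.075. The medians of all 7210 genes lay between -0.097 and -0.053 in ADAR3 IP, between -0.22 and -0.027 in serum IP and between -0.017 and 0.015 in input.

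**Figure D2:**
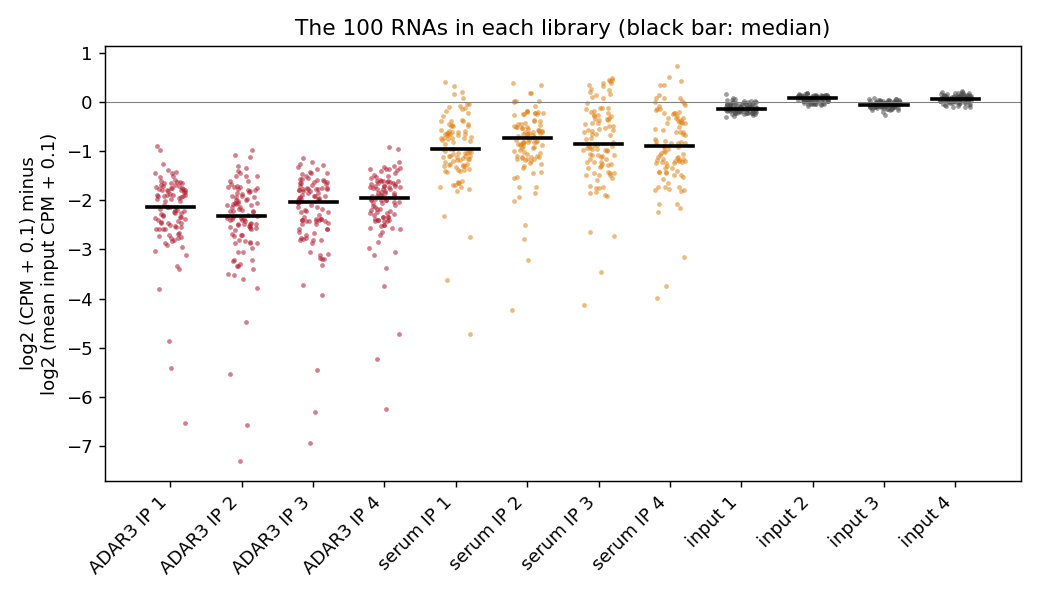
Log2 level (CPM + 0.1) of the 100 RNAs relative to each RNA's mean in input, by library, with points for RNAs and black bars for medians. Medians run from -2.32 to -1.95 in ADAR3 IP and from -0.95 to -0.74 in serum IP, and the 3 lowest points of each ADAR3 IP library belong to the 3 most abundant members.

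The difference from input had a serum step and an ADAR3 step. The median log2 ratio of serum IP over input was -0.66, with quartiles of -1.06 and -0.42, against -0.065 over the 7210 genes and -0.43 over the 3941 whose serum mean was not above input. The step from serum IP to ADAR3 IP was the larger one for 93 of the 100, a count not made over the 7210 genes. The rule fixed the sign of the first step and ranked by the second, so this split is a description. For 62 of the 100, the 4 serum libraries were all lower than the 4 input libraries as well. That order between the controls held for 33.5% of the 3941 genes with a serum mean not above input, as the rule required, and for 18.3% of the 7210. The rule favours genes with tight serum libraries, so the count of 62 is a description too. The full order of ADAR3 IP below serum IP below input, with no overlap, held for 4.44% of the 3941 and 2.43% of the 7210. ADAR3 IP alone lay below every serum library for 6.95% of the 7210, below every input library for 36.8%, and below both for 5.83%.

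The serum step varied widely among the members. At one end, the 3 most abundant RNAs stood 6.68-fold to 18.97-fold lower in serum IP than in input. At the other, 12 members had a serum mean within 1.2-fold of input. The RNA ranked 27 had 22.7, 20.2, 21.7 and 24.1 CPM in ADAR3 IP, 40.03, 70.8, 78.8 and 56.0 CPM in serum IP, and 53.3, 65.0, 63.4 and 65.2 CPM in input, so that only ADAR3 IP stood apart. The RNA ranked 12 had 19.02, 19.2, 13.4 and 16.04 CPM in ADAR3 IP, 84.9, 44.3, 26.6 and 81.6 CPM in serum IP, and 58.7, 65.3, 61.8 and 69.1 CPM in input. Its serum libraries lay on both sides of input. In 31 members at least 1 serum library exceeded the input mean.

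The rule used both ratios, so their relation to abundance within the 100 is a description only. Among the 25 members lowest in input, 29.6 to 60.9 CPM, the median log2 ratio was -1.36 for ADAR3 IP over serum IP and -0.42 for serum IP over input. Among the 25 highest, 246 to 15898 CPM, these medians were -1.38 and -1.07. Across the 100, Spearman's rho with the input level was -0.0075 for the ratio of ADAR3 IP over serum IP and -0.64 for that of serum IP over input. Across the 7210 genes rho was 0.10 and -0.29. The rule cut the list on the first ratio, which narrows its range. The minimum of 20 CPM in serum IP limits how deep the second can be for members low in input, and that ratio holds the input level in its denominator. Genes are also not independent replicates.

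**Figure D3:**
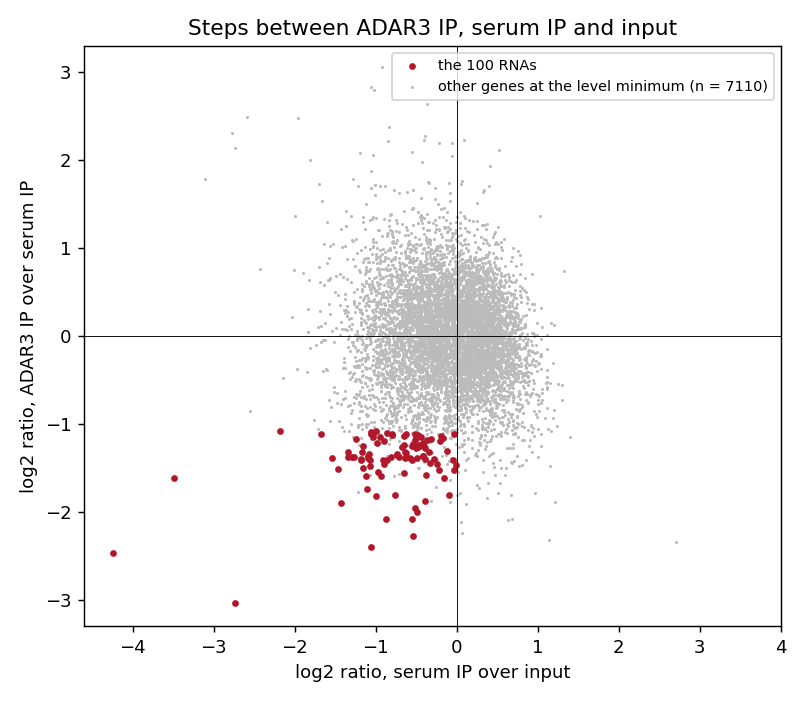
Log2 ratio of ADAR3 IP over serum IP (y axis) against log2 ratio of serum IP over input (x axis), from group mean CPM, for the 100 RNAs (red) and the other 7110 genes at the level minimum (grey), 2 of which lie outside the plotted range. The 100 occupy the lower left by the rule, with y from -3.04 to -1.08, and the 3 most abundant are the 3 red points farthest left.

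Replicates spread unequally between the groups. The median SD of the log2 level between replicates was 0.27 in ADAR3 IP, 0.49 in serum IP and 0.12 in input for the 100, against 0.17, 0.57 and 0.090 for the 7210 genes. The highest library exceeded the lowest at least 2-fold for 14 members in ADAR3 IP, for 59 in serum IP and for 0 in input. These counts were not made over the 7210 genes, so they are not read as a trait of the 100. The rule favours genes with tight serum libraries, so the lower serum spread of the 100 is no finding.

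Which library of a group was the lowest or the highest was not part of the rule. ADAR3 IP replicate 4 was the highest ADAR3 IP library for 59 members, or 59.0%, against 31.4% of the 7210 genes, and replicate 2 the lowest for 52 members, or 52.0%, against 33.9%. In the 183 genes that met the rule but ranked after the 100, these shares were 48.1% and 54.1%. Neither order was thus particular to the 100. Input replicate 1 was the lowest input library for 71 members, or 71.0%, against 26.5% of the 7210 and 51.9% of the 183. Input replicates 2 and 4 were the highest for 47 and 46 members, against 21.3% and 19.7% of the 7210 and 41.0% and 24.6% of the 183. In serum IP no library was the lowest for more than 30 or the highest for more than 32. The members thus tended to vary together between libraries of ADAR3 IP and of input. The same number gave the same order for some replicates and not for others: replicate 4 was often the highest in both ADAR3 IP and input, while replicate 2 was often the lowest in ADAR3 IP and the highest in input. ADAR3 IP replicates 2 and 4 were also the deepest and the shallowest of their group, with 30156884 and 23999234 reads. Input replicate 1 was the deepest of its group. Input replicate 3, the shallowest input library, was the highest for 3 members and the lowest for 19. Serum replicate 4, the shallowest serum library, was the highest for 22 members and the lowest for 30. The part of depth in these orders was not tested.

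The list was also chosen again with 1 library left out. The left-out library's values did not enter that choice, but the libraries it is set against did: a left-out ADAR3 IP library is compared with the same 8 control libraries that chose the list, and a left-out control library with the same 4 ADAR3 IP libraries. These counts are therefore not independent of the choice. Without ADAR3 IP replicate 1, 2, 3 or 4, the left-out library lay below all 8 control libraries for 94, 98, 96 and 94 of the 100 RNAs chosen from the others. Over all genes at the level minimum this held for 10.8%, 12.7%, 10.3% and 10.4%. In the left-out library the median log2 ratio over serum IP of those lists was -1.37, -1.49, -1.31 and -1.18, against -1.35, -1.30, -1.36 and -1.42 in the 3 libraries that chose them. Without serum replicate 1, 2, 3 or 4, the left-out library lay above all 4 ADAR3 IP libraries for 88, 86, 87 and 72 of the chosen RNAs, against 34.2%, 33.8%, 40.5% and 33.4% of all genes at the level minimum. The median log2 ratio of ADAR3 IP over the left-out serum library was -1.02, -1.17, -1.21 and -0.90, compared with -1.43, -1.31, -1.34 and -1.44 over the serum libraries used. Each left-out serum library thus showed a smaller difference than those that chose the list, most of all replicate 4, the shallowest. Over all genes at the level minimum, the median ratio over the left-out serum library was 0.0996, 0.137, -0.0055 and 0.198, also highest for replicate 4. The choice ranked genes on the ratio over the serum libraries used, so it favoured genes that were high in those libraries. A smaller difference in a left-out serum library tends to follow from such a choice, so it is no finding. The left-out ratio is also over 1 library, and the other over a mean of 3. The parts of depth and of such shifts across all genes in the smaller differences were not tested. Left-out input replicates 1, 2, 3 and 4 each lay above all 4 ADAR3 IP libraries for 100 of 100, against 44.1%, 42.0%, 43.2% and 41.4% of all genes at the level minimum.

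**Figure D4:**
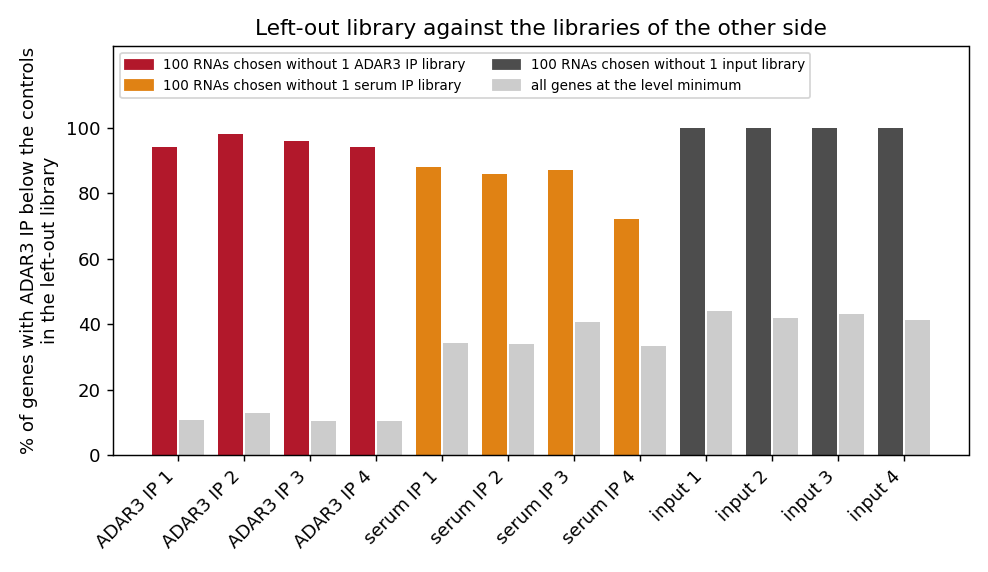
Percentage of genes with ADAR3 IP below the controls in a library left out of the choice, for the 100 RNAs chosen without that library (coloured) and for all genes at the level minimum (grey). Left-out ADAR3 IP libraries reach 94% to 98%, left-out serum libraries 72% to 88% and left-out input libraries 100%.

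Tests were made between the IPs only, because the input table was normalized separately. With limma on log2(normalized count + 1) of 11112 genes, 193 were lower in ADAR3 IP at a Benjamini-Hochberg adjusted p under 0.05, which is 1.74%, and 259 were higher. Of the 100 RNAs, all were tested, 53 were among the 193 and 0 among the 259. The limma fit was also repeated with each ADAR3 IP library dropped. It then called 31, 29, 29 and 36 of the 100 lower for replicates 1, 2, 3 and 4. Of all 11112 genes it called 72, 65, 68 and 90 lower, so calls fell for genes at large as well. edgeR on recovered reads called 59 of the 100, against 1.75% of the same genes. In the authors' deposited table, all 100 were lower at an adjusted p under 0.05, as were 5.63% of 17946 genes with an adjusted p. Their log2 fold changes in the authors' deposited table ran from -3.12 to -1.16 with a median of -1.45. The rule used the same contrast, so nothing is read from these shares.

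The limit of 100 falls within a continuous range. The members ranked 99 and 100 and the genes ranked 101 and 102 all had scores of -1.08. The 183 further genes that met every condition had scores of -1.08 to -0.24, with a median log2 ratio of -0.72 over serum IP and -1.24 over input. The serum libraries were all lower than the input libraries for 113 of the 183, or 61.7%, close to the 62.0% of the 100. Input replicate 1 was the lowest input library for 95 of the 183, or 51.9%. A further 137 genes had all ADAR3 IP libraries below all controls but a serum mean above input, with medians of -0.93 over serum IP and -0.597 over input. Input replicate 1 was the lowest input library for only 24 of these 137, or 17.5%, against 71.0% of the 100. This order of the input libraries was not tested.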

How the data were processed

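Libraries were strand-specific and made after depletion of ribosomal RNA, per the labels' protocols, and each IP library used all RNA recovered while input libraries started from total RNA. The molecule label reads polyA RNA. STAR 2.7.7a, featureCounts, DESeq2 and GRCh38 are named, without roles, in the submitters' processing notes. No source used here gives the annotation or the strand setting, so genes that overlap, antisense partners and near-identical copies could share reads. The deposited values are a normalized signal: 100% of them were whole multiples of 1 read (tolerance 0.001 reads), so reads were recovered. The authors deposited log2 fold changes and adjusted p-values for the IP table.

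CPM came from column sums. limma 3.58.1 (R 4.3.3) was run on log2(deposited value + 1) of the 8 IP libraries, with a variance trend, for genes with a mean of at least 50. edgeR 4.0.16 and DESeq2 1.42.0 on recovered reads were alternatives. Fold changes on this scale understate low genes. The reference of 59792 genes held 0 Ensembl IDs and named 0 of 31707 IDs, so the fixed gene lists and markers, and the rule for named genes beyond 2 IDs, were not applied. Members and lists were chosen with earlier results of these data known. For libraries of the same number, deviations from the group means had correlations of 0.0031 to 0.045 between ADAR3 IP and serum IP, -0.17 to 0.44 between ADAR3 IP and input, and 0.016 to 0.15 between serum IP and input. Numbers were not taken to pair the IP libraries, the only ones tested against each other.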

Additional observations from a re-analysis of the deposited data

Results flagged for a closer look

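In 2 of 30 sets of 4 values, 1 library lay far from the rest of its group by Dixon's test. The RNA ranked 3 had 144 CPM in input replicate 1, below the other input libraries. The RNA ranked 5 had 90.1 CPM in input replicate 1, also below the other input libraries. Chance marks about 1 set in 20.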

How the results depend on the processing

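The direction of every median of the 100 RNAs held in every setting run. The rule had set these directions for the members, so this is a description and not support. The median log2 ratio of serum IP over input was -0.77 with group medians. With the list chosen again, 99 members stayed at a pseudocount of 1, 98 at a minimum of 10 CPM, 83 at 40 CPM (which 83 members reach), 95 with TMM factors, 88 with no condition between the controls and 83 with group medians. Leaving out 1 library kept 72 (serum IP replicate 4) to 99. DESeq2 called 740 genes lower, 634 higher and 99 members lower. Higher genes numbered 1493 without a filter on low values and 449 with TMM factors. In limma, CPM and TMM scaling gave 147 and 129 lower genes. They moved its median log2 ratio over all 11112 genes from 0.25 to 0.33 and 0.39. With edgeR and DESeq2 on recovered reads that median was -0.00063 and -0.062. Leaving out 1 IP library gave 65 (ADAR3 IP replicate 2) to 345 (serum IP replicate 4) lower genes, 106 to 446 higher ones from the same libraries, and 29 to 60 members. Without ADAR3 IP replicates 1, 3 and 4 in turn, lower genes were 72, 68 and 90 and higher ones 115, 107 and 121. The medians of the 100 over leave-one-out fits ran from -1.42 to -1.30 for ADAR3 IP over serum IP, from -2.16 to -2.01 over input and from -0.75 to -0.63 for serum IP over input. With the replicate number as a block, 140 genes were lower, 263 higher and 46 members called. For each of these changes the cause was not tested. The shallowest serum IP library held 1875461 reads. How depth limits genes of low level was not tested.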
